A study of Mus musculus with 9 samples.

Results

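A set of 8 genes encoding islet hormones and related peptides other than insulin were followed in MIN6 cells: glucagon (Gcg), transthyretin (Ttr), somatostatin (Sst), pancreatic polypeptide (Ppy), peptide YY (Pyy), ghrelin (Ghrl), cholecystokinin (Cck) and neuropeptide Y (Npy). They are 8 of the 52408 genes with summed transcript rows. They were chosen by name, with earlier results of these data known, and the TPM of all transcript rows of a gene was added. MIN6 is an insulin-producing line from a mouse insulinoma and a common model of the beta cell. The 9 libraries come from 3 groups of 3, all labelled batch 1: untransfected MIN6 cells (control), MIN6 cells with Nr4a1 overexpressed, and MIN6 cells treated with EGCG, which the series design places upon NR4A1 overexpression. Nr4a1 is an orphan nuclear receptor, and EGCG is epigallocatechin gallate, a catechin of green tea. How much EGCG was given, for how long, and how the receptor was overexpressed is not stated in the labels. Because the control cells were untransfected, transfection and the receptor cannot be told apart in comparisons with control. The labels do not say whether the triplicates were separate cultures, so p-values measure only the spread between these libraries, which may be technical.

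Islet hormones are made as larger precursors that are cut by prohormone convertases and stored in secretory granules. In the adult islet glucagon marks alpha cells, somatostatin delta cells, pancreatic polypeptide PP cells and ghrelin the rare epsilon cells. Glucagon raises blood glucose, and the same precursor gives GLP-1 where it is cut by the convertase PC1/3. Somatostatin restrains the secretion of its neighbours. Neuropeptide Y, peptide YY and pancreatic polypeptide form a single peptide family that acts on shared receptors. Cholecystokinin is best known as a gut hormone and neuropeptide. Transthyretin carries thyroxine and retinol-binding protein in blood and is also made in islet endocrine cells.

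The sequences just before the annotated start of 4 of the genes are shown because Gcg and Cck were both called higher with overexpression, Npy was not, and Sst was at or near 0. They are RefSeq sequences on GRCm38.p6, each of 250 bases ending at the base before the start, written 5′ to 3′ on the gene's strand. Gcg lies on the minus strand at chr2:62483654-62483903, Cck on the minus strand at chr9:121495695-121495944, Npy on the plus strand at chr6:49822460-49822709 and Sst on the minus strand at chr16:23890845-23891094. Capitals mark matches to the motifs searched.
Gcg: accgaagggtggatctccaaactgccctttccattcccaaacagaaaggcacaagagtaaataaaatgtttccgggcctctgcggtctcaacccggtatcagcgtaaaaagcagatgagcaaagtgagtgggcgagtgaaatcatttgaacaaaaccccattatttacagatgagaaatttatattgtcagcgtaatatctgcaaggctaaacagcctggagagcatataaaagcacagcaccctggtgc
Cck: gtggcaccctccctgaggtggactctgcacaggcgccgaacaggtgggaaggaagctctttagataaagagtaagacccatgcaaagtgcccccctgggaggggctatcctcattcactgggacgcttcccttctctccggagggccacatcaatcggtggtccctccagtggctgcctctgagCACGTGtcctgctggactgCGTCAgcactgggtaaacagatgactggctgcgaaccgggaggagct
Npy: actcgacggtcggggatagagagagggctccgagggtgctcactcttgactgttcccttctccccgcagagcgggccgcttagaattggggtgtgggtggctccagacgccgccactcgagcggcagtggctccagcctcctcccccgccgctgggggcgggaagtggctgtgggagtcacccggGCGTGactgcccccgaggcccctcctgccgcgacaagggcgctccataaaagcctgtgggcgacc
Sst: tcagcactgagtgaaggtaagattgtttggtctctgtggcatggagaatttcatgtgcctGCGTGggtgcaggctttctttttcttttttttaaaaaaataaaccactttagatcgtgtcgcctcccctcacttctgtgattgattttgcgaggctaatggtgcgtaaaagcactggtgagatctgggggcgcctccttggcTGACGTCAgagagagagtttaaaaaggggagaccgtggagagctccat

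RefSeq windows of 7 of the 8 genes were searched, each from 250 bases before to 50 bases after the start. Ttr was left out of the search. The motifs, searched on both strands, were the NR4A monomer site NBRE (AAAGGTCA), the cyclic AMP response element (TGACGTCA) and its shorter part TGACG, the hypoxia response core (ACGTG, with the variant form GCGTG) and a homeodomain core (TAATTA). That shorter part lies within the full element, so their matches overlap. Among 32851 RefSeq windows of the same length, 1.51% held the NBRE, 1.79% the full cyclic AMP element, 20.8% TGACG, 43.8% a hypoxia core and 5.29% the homeodomain core. The Sst window held the full cyclic AMP element at positions -48 to -41, counted back from the start, and a GCGTG at -190 to -186. The Cck window held TGACG on the opposite strand at -47 to -43 and ACGTG on both strands, spanning -66 to -61. The Npy window held GCGTG at -65 to -61, and both Pyy windows held ACGTG. The letters of the NBRE and the homeodomain core did not occur in any of the windows of these 7 genes, and the Gcg window held none of the motifs searched. A match describes letters in the window and is not evidence of binding.

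Nr4a1, the check of the labels, was at 0.63, 0.78 and 0.76 TPM in the control libraries, 128.3, 122.5 and 165.2 TPM in the overexpression libraries and 46.2, 60.9 and 54.5 TPM in the EGCG libraries. The labels and the receptor's transcript thus go the same way, and the EGCG group carried 38.8% of the receptor's transcript of the overexpression group. No group had EGCG without overexpression, so EGCG and the lower receptor transcript cannot be told apart in the comparison of EGCG with overexpression. TPM, the deposited unit, is a share of a library corrected for transcript length, so levels of different genes can be compared, while depth is unknown. The share of TPM on nuclear protein-coding genes was 21.2% to 21.7% for control, 22.6% to 23.1% for overexpression and 20.2% to 20.7% for EGCG. Low-level signal over genes that these cells are not known to use was highest in control. A set of 1986 chemoreceptor genes (olfactory, vomeronasal and trace amine receptors), chosen with this pattern known, reached in sum 131.3, 109.6 and 66.5 TPM in control replicates 1 to 3, 5.75 to 6.82 TPM with overexpression and 10.3 to 15.4 TPM with EGCG.

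Of the 8 genes, 4 (Npy, Gcg, Cck and Ttr) passed the filter of at least 1 TPM in at least 3 libraries and were above 1 TPM in all 9 libraries. The other 4, Ghrl, Sst, Ppy and Pyy, stayed under 1 TPM in every library and were not tested. The order of the levels, Npy above Gcg above Cck above Ttr, was the same in each of the 9 libraries, with no overlap between neighbours within a group. The 8 genes together gave 2683 to 2897 TPM in control, 2952 to 3172 TPM with overexpression and 1894 to 2137 TPM with EGCG. Npy made up 85.0% to 85.9% of that sum in control, 66.5% to 67.9% with overexpression and 80.1% to 83.4% with EGCG. In the same order Gcg made up 11.46% to 12.02%, 24.6% to 25.5% and 14.0% to 16.5%.

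**Figure D1:**
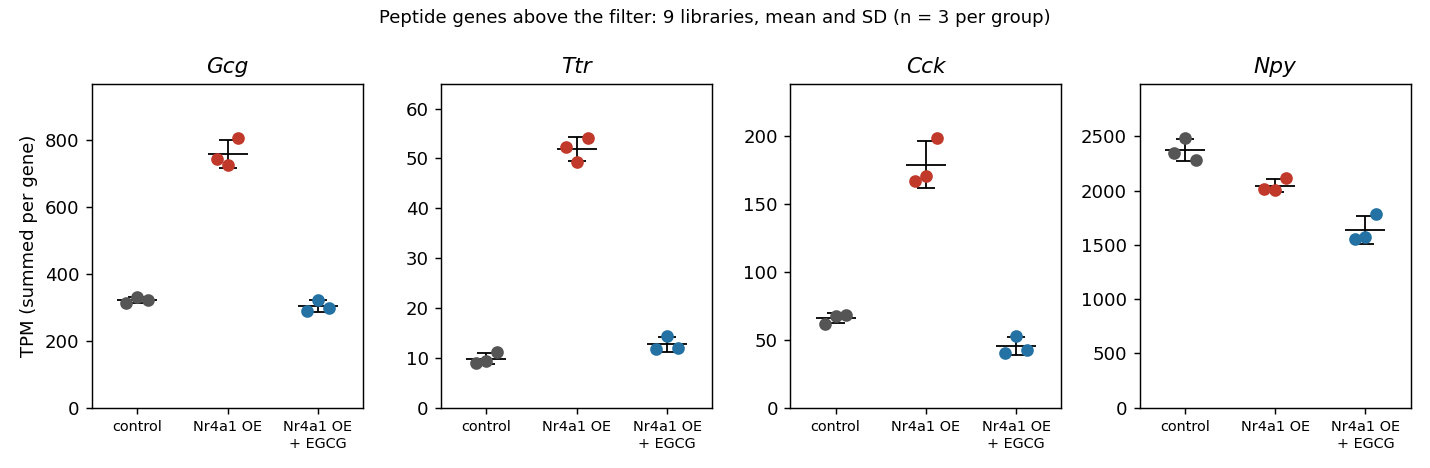
TPM of Gcg, Ttr, Cck and Npy in each library (points), with the mean and SD of 3 libraries per group (bars), on linear axes that start at 0. Gcg, Ttr and Cck are highest in the 3 overexpression libraries, whereas Npy is highest in control and lowest with EGCG.

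Overexpressing and untransfected cells were compared first. Glucagon, transthyretin and cholecystokinin transcripts rose, by 2.35, 5.28 and 2.71 times in group means, and that of neuropeptide Y was slightly lower, at 86.1% of control. Of the 8 genes, 3 were called higher, 1 was called lower and 4 were not tested. Over all 11950 tested genes 38.2% were called higher and 21.3% lower (limma, adjusted p under 0.05), so a call by itself is common here. The balance depends on the scale: 4561 genes were higher and 2545 lower as deposited. Median-ratio scaling over genes above 0 in every library gave 4560 and 2631. Median-ratio scaling over the tested genes gave 3541 and 3547, but it sets the median change near 0, so a near-even split is built in. A called rise of at least 1 on the log2 scale, which Gcg, Ttr and Cck each had, was found in 2.69% of tested genes. In bulk RNA a change in the number of cells that make a peptide and a change in RNA per cell cannot be told apart.

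EGCG was then compared with overexpression alone, a comparison that shares the overexpression libraries with the first. All 4 tested peptide genes were lower with EGCG: Gcg was at 40.1% of the overexpression mean, Ttr at 24.5%, Cck at 25.2% and Npy at 80.1%. Over all tested genes 34.1% were called lower and 18.8% higher, and 1.42% were called lower by at least 1 on the log2 scale, as Gcg, Ttr and Cck were. This balance also turned with the scale, from 2250 higher and 4080 lower to 3462 and 2607 after rescaling to nuclear protein-coding genes. It was 2557 and 3772 with median-ratio scaling over genes above 0 in every library. With that scaling over the tested genes it was 3054 and 3082, a near-even split that is again built in. EGCG against control shares libraries with both other comparisons. There Ttr was called higher, Cck and Npy were called lower, and Gcg was not past the threshold, while 11.1% of tested genes were called higher and 7.10% lower. The libraries did not overlap for Ttr, Cck and Npy there, as for 34.8% of tested genes; between EGCG and overexpression all 4 tested peptide genes were free of overlap, as were 64.6% of tested genes.

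**Figure D2:**
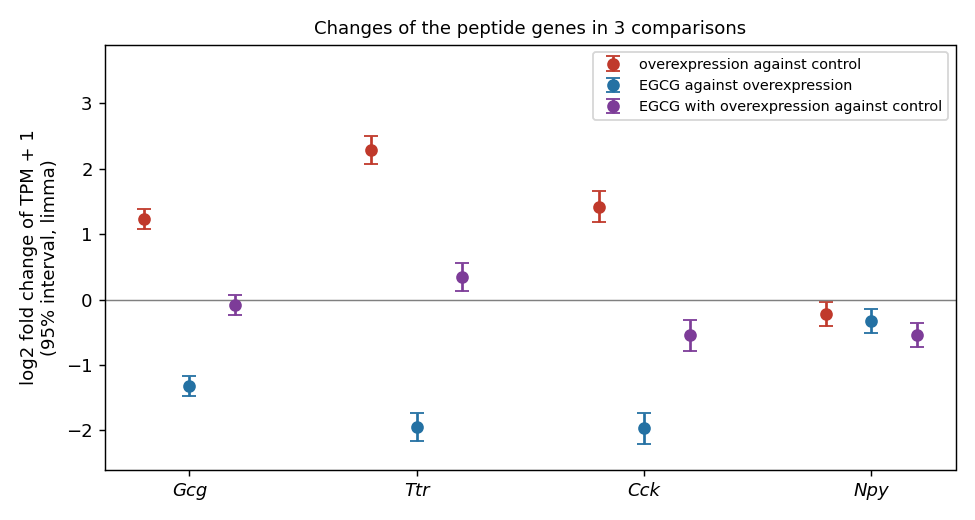
Differences of mean log2(TPM + 1) for Gcg, Ttr, Cck and Npy in 3 comparisons (points), with 95% intervals from limma (bars) and a grey line at no change. Gcg, Ttr and Cck lie above 1 for overexpression against control and below -1 for EGCG against overexpression, and Npy lies between -0.54 and -0.22 in all 3.

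Gcg encodes the precursor of glucagon and of the GLP peptides. It was at 313.9, 332.0 and 322.4 TPM in the control libraries, 743.8, 726.5 and 807.7 TPM in the overexpression libraries and 290.0, 323.5 and 299.6 TPM in the EGCG libraries. Every overexpression library lay above every other library, and the control and EGCG libraries overlapped. Among protein-coding genes ordered by TPM, Gcg ranked 63 to 69 in control, 16 to 17 with overexpression and 56 to 67 with EGCG. The difference of mean log2(TPM + 1) was 1.23 ± 0.0663 (SE) for overexpression against control (limma, Benjamini-Hochberg adjusted p = 1.61e-06). It was -1.32 ± 0.0663 for EGCG against overexpression (limma, adjusted p = 1.33e-06). For EGCG against control it was -0.09, with a 95% interval of -0.24 to 0.06 (limma, adjusted p = 0.389), so a difference larger than that interval was not seen.

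For Gcg 3 transcripts were listed. The main protein-coding one, ENSMUST00000102733, held 89.0% of Gcg TPM for control, 86.9% with overexpression and 90.5% with EGCG. A second protein-coding transcript, ENSMUST00000136686, held 8.23%, 11.3% and 7.87% in the same order. The processed transcript ENSMUST00000155624, which has no annotated coding frame, was at 10.3, 8.97 and 7.74 TPM in the control libraries, 12.8, 14.9 and 13.4 TPM in the overexpression libraries and 4.5, 5.48 and 4.82 TPM in the EGCG libraries. It therefore lay lower with EGCG than in control in every library, with shares of 2.79% in control, 1.80% with overexpression and 1.62% with EGCG, although total Gcg overlapped between those groups. These transcripts share exons, their reads were divided by the authors' estimation, and no test was made on the shares.

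Ttr encodes transthyretin and had the largest rise of the 4 tested peptide genes. It was at 9.01, 9.41 and 11.1 TPM in the control libraries, 52.3, 49.4 and 54.2 TPM in the overexpression libraries and 11.7, 14.5 and 12.02 TPM in the EGCG libraries, all from a single annotated transcript. The 3 groups did not overlap, although the highest control library and the lowest EGCG library lay close together. With overexpression it rose by 2.29 ± 0.0943 (SE) on the log2(TPM + 1) scale (limma, adjusted p = 4.28e-07), and with EGCG it fell by 1.95 ± 0.0943 (limma, adjusted p = 1.10e-06). The EGCG group stayed above control by 0.34 ± 0.0943 (limma, adjusted p = 0.0377). That last call was weak: of the 9 fits that left out a library it held only without control replicate 3 (limma, adjusted p = 0.0114) and rose to an adjusted p of 0.053 to 0.115 without any other. It was also lost without the filter (limma, adjusted p = 0.0512) and with only the 2 groups compared in the fit (limma, adjusted p = 0.0883).

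Cck encodes cholecystokinin. It was at 61.8, 67.7 and 68.4 TPM in the control libraries, 167.0, 170.9 and 198.9 TPM in the overexpression libraries and 40.2, 52.6 and 42.7 TPM in the EGCG libraries. The groups did not overlap, and the EGCG libraries were the lowest. The rise with overexpression was 1.42 ± 0.105 (SE; limma, adjusted p = 7.41e-06), and the change with EGCG was -1.97 ± 0.105 (limma, adjusted p = 1.75e-06). Unlike Gcg, Cck with EGCG lay below control, at 68.5% of its mean, by a difference of -0.54 with a 95% interval of -0.78 to -0.31 (limma, adjusted p = 0.0122). That call held in each of the 9 fits that left out a library, with a highest adjusted p of 0.0472 (limma). Of 6 listed Cck transcripts, ENSMUST00000035120 made up 98.1% of Cck TPM for control, 96.7% for overexpression and 95.7% for EGCG.

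Npy encodes neuropeptide Y, a transmitter peptide of sympathetic nerves that is also made in islets. It was the most abundant of the 8 in each library and ranked between 6 and 8 among protein-coding genes. It was at 2350, 2487 and 2281 TPM in the control libraries, 2014, 2004 and 2111 TPM in the overexpression libraries and 1551, 1576 and 1782 TPM in the EGCG libraries, from a single transcript. The groups did not overlap and stepped down from control to overexpression to EGCG, in a design where 65.0% of tested genes did not overlap between overexpression and control. The difference from control with overexpression was -0.22 ± 0.0811 (SE; limma, adjusted p = 0.0446). That call held without control replicate 3 or EGCG replicate 3 and was lost without any other single library, with a highest adjusted p of 0.143 (limma), and it was also lost without the filter on low values (limma, adjusted p = 0.0937). With EGCG the difference from overexpression was -0.32 ± 0.0811 (limma, adjusted p = 0.00864), and it depended on the scale: with quantile normalization it was -0.05 (limma, adjusted p = 0.623), and after rescaling to nuclear protein-coding genes -0.17 (limma, adjusted p = 0.0926). Against control the EGCG group was lower by -0.54 ± 0.0811 (limma, adjusted p = 0.00514), a call that held under each alternative run, where the difference was between -0.60 and -0.37.

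The 4 remaining genes were at or near 0. Sst was listed at 0.09, 0.07 and 0.05 TPM in the control libraries and at 0 in all 6 others. This is the direction of the chemoreceptor genes, whose median was 0.06, 0.05 and 0.02 TPM in the same control libraries and 0 in all others. The part of that low-level signal in the Sst values was not tested. Ppy was listed at 0.15 TPM in control replicate 1, 0.15 TPM in overexpression replicate 3 and 0.06 TPM in EGCG replicate 2, and at 0 elsewhere. Pyy was listed at 0.11 TPM in EGCG replicate 1, from a retained-intron transcript, and at 0 in the other 8 libraries. Levels of Sst, Ppy and Pyy were too low to be put in order.

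Ghrl, which encodes ghrelin, a peptide that stimulates appetite and growth hormone release, was the highest of these 4. It was at 0.06, 0.58 and 0.16 TPM in the control libraries, 0.64, 0.74 and 0.72 TPM in the overexpression libraries and 0.87, 0.96 and 0.71 TPM in the EGCG libraries. The control libraries lay below both other groups, which overlapped each other, and in control the range of Ghrl overlapped those of Sst and Ppy. A retained-intron transcript held 52.5% of Ghrl TPM for control, 67.6% with overexpression and 73.2% with EGCG. The control share came from replicate 2 alone, at 0.42 TPM, and the transcript was at 0 in control replicates 1 and 3. The protein-coding transcript ENSMUST00000203770 was at 0.06 to 0.27 TPM over all 9 libraries. In GENCODE M21 an antisense gene, Gm26982, at 0.71 to 1.66 TPM, and a further opposite-strand gene, Gm44033, at 0.37 to 1.00 TPM, overlap Ghrl. Since the strand setting of the counting is not given, reads of Ghrl and of these genes may not be separated. No overlapping genes were annotated for the other 7.

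**Figure D3:**
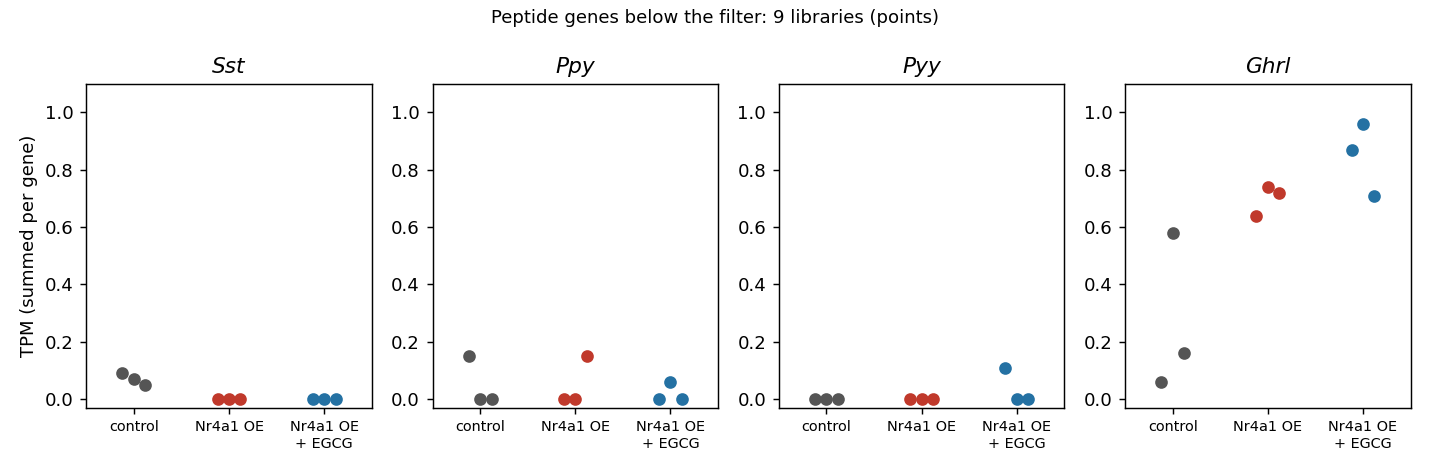
TPM of Sst, Ppy, Pyy and Ghrl in each library (points), on a shared linear axis. Every value is under 1 TPM; Sst is above 0 in the control libraries alone, and Ghrl lies higher in the overexpression and EGCG libraries than in control.

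Ratios of 2 genes within a library do not depend on the TPM total, so the peptide genes were also set against Ins1, an insulin gene of the mouse, against the granule protein gene Chga and against each other. With 3 libraries against 3, a two-sided exact permutation test cannot go below p = 0.1. The family held 42 tests, each ratio in 3 comparisons that share libraries, so none could pass. Benjamini-Hochberg adjusted values over the family were 0.120 for a p of 0.1, 0.233 for 0.2 and 0.717 for 0.7. Gcg and Ins1 moved by similar factors. The ratio of Gcg to Ins1 was 0.412 ± 0.020 in control, 0.374 ± 0.0213 with overexpression and 0.420 ± 0.0134 with EGCG (n = 3 each, SD). The control and overexpression libraries overlapped in this ratio (two-sided exact permutation p = 0.2), as did control and EGCG (exact permutation p = 0.7), while every EGCG library lay above every overexpression library (exact permutation p = 0.1). Relative to Chga, by contrast, Gcg went from 0.290 ± 0.0136 to 0.882 ± 0.0557 and back to 0.384 ± 0.0160.

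Cck to Ins1 was 0.0841 ± 0.00183 in control and 0.0881 ± 0.00732 with overexpression, which overlapped, and 0.0622 ± 0.00750 with EGCG, below every library of the other groups (n = 3 each, SD). Ttr to Ins1 was 0.0125 ± 0.000763 in control, 0.0256 ± 0.00158 with overexpression and 0.0175 ± 0.00167 with EGCG, with no overlap between any groups. Npy to Ins1 was 3.03 ± 0.243, 1.01 ± 0.0354 and 2.26 ± 0.187 in the same order, so the most abundant of the 8 peptide transcripts was about level with Ins1 in overexpressing cells alone. Npy to Chga moved less, at 2.13 ± 0.0668, 2.37 ± 0.0882 and 2.06 ± 0.125. Ttr to Cck was 0.149 ± 0.0120 in control, 0.291 ± 0.0204 with overexpression and 0.282 ± 0.00779 with EGCG. The EGCG libraries did not overlap control in this ratio (two-sided exact permutation p = 0.1, the smallest possible) and overlapped the overexpression libraries.

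**Figure D4:**
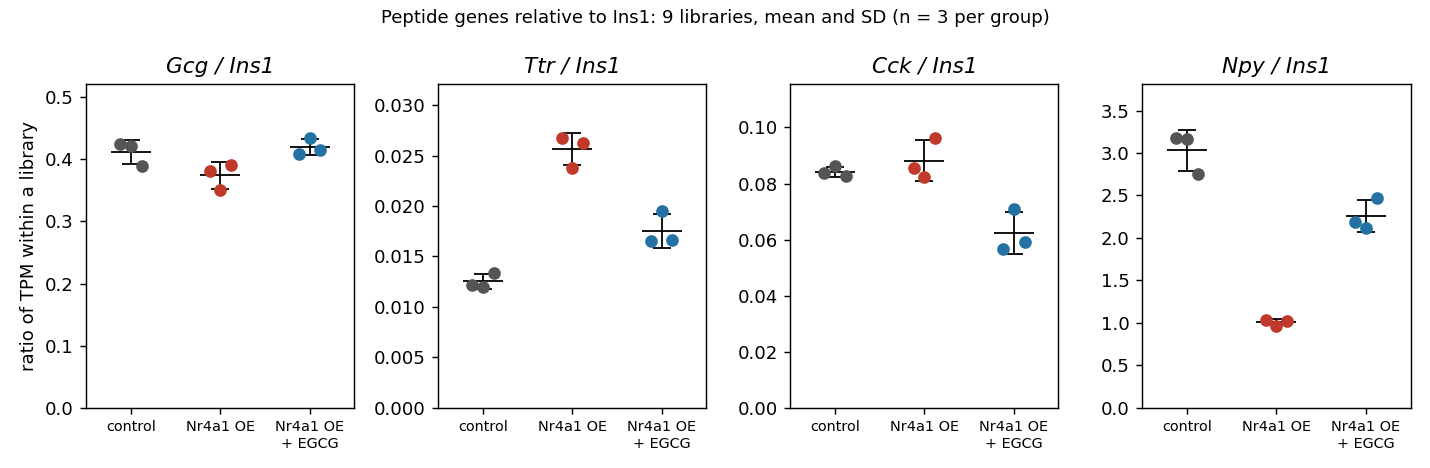
TPM of Gcg, Ttr, Cck and Npy divided by that of Ins1 in the same library (points), with the mean and SD of 3 libraries per group (bars), on linear axes that start at 0. The ratio of Gcg stays between 0.350 and 0.435 in all 9 libraries, that of Cck is lowest with EGCG, that of Ttr is highest and that of Npy lowest with overexpression.

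To describe which genes were most like each of the 4, log2(TPM + 1) profiles over the 9 libraries were centred and compared by their root mean square difference, among 6705 genes whose mean reached 5 TPM. Those nearest to Gcg were Hadh, an enzyme of mitochondrial fatty acid oxidation (0.0736 on the log2 scale), the exocyst subunit gene Exoc8 (0.0775), Chic1, the cold-inducible RNA-binding protein gene Rbm3 and Lrrn3 (0.0916). Hadh, for example, was at 10.8 ± 0.278, 27.8 ± 1.06 and 11.4 ± 0.917 TPM in control, overexpression and EGCG (SD, n = 3 each). The nearest to Ttr were the potassium channel gene Kcnk16 (0.120), the fructose transporter gene Slc2a5 (0.122), the plasminogen activator gene Plat (0.125), the glycine cleavage gene Gcsh and Wdr6 (0.302). Cck was nearest to Pcp4, a regulator of calmodulin (0.162), the growth factor gene Csf1 (0.190), Emc8, Ins1 (0.237) and Gcsh (0.257), and Gcg ranked 7 among its neighbours. Npy was nearest to Sh3glb1 (0.0656), the NEDD8-conjugating enzyme gene Ube2m, Ppig and the mitochondrial chaperonin gene Hspe1 (0.0792). Each list follows mainly the differences between the 3 groups and describes these libraries alone.

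Most receptor genes of the 8 peptides were low. Of 16 receptor genes, for glucagon and GLP peptides, somatostatin, the neuropeptide Y family, ghrelin and cholecystokinin, 14 did not pass the filter and were not tested, at 0 to 0.24 TPM. The GLP-1 receptor gene Glp1r was at 2.65 ± 0.135, 7.18 ± 0.699 and 3.21 ± 0.166 TPM in control, overexpression and EGCG (SD, n = 3 each). The somatostatin receptor gene Sstr2 was at 0.27 ± 0.130, 1.63 ± 0.0231 and 0.273 ± 0.00577 TPM, and it passed the filter only through the overexpression group. Glp1r, above 1 TPM in all libraries, rose with overexpression by 1.16 ± 0.0718 (SE) on the log2(TPM + 1) scale (limma, adjusted p = 2.98e-06) and fell with EGCG (limma, adjusted p = 1.22e-05). In the EGCG group Glp1r did not pass the test against control (limma, adjusted p = 0.0750). Because of how Sstr2 entered, its values are a description and no test of it is given.

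Genes for the maturation and cleavage of peptide precursors went both ways. Of 17, 13 were tested, and with overexpression 5 rose, 2 fell and 6 did not pass, with a median of 0.10 on the log2 scale against 0.10 for all tested genes. Pcsk1, which encodes PC1/3, went from 61.0 ± 3.99 to 88.7 ± 3.26 TPM and was at 58.3 ± 1.78 TPM with EGCG (n = 3 each, SD). Scg5, whose product assists the convertase PC2, went the other way, at 126.1 ± 2.39, 80.3 ± 1.83 and 116.9 ± 5.77 TPM. Ece1, a membrane metalloprotease that processes endothelin, was at 19.8 ± 1.28, 40.9 ± 0.916 and 21.98 ± 4.06 TPM. Tpst1, which sulfates tyrosines such as that of cholecystokinin, was at 8.46 ± 0.0981, 11.6 ± 0.340 and 8.28 ± 0.580 TPM. With EGCG against overexpression 2 rose, 5 fell and 6 did not pass, with a median of -0.09, as for all tested genes. Called shares over all tested genes were 38.2% higher and 21.3% lower with overexpression, and 18.8% higher and 34.1% lower with EGCG. Pam, the enzyme that amidates the ends of peptides such as neuropeptide Y and cholecystokinin, rose with EGCG, from 66.2 ± 2.07 to 89.9 ± 2.98 TPM, and was also above control (72.1 ± 0.970 TPM; limma, adjusted p = 0.00537).

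Partners of transthyretin in the transport and action of retinoids and thyroid hormone ran against Ttr where they passed the test, apart from Rxrb. Of 18 genes 6 were tested. With overexpression 4 fell, 1 rose and 1 did not pass (median -0.54 on the log2 scale, all tested genes 0.10), and with EGCG against overexpression 4 rose, none fell and 2 did not pass (median 0.48, all tested genes -0.09). Of all tested genes, 21.3% fell and 38.2% rose with overexpression, and 18.8% rose and 34.1% fell with EGCG. Rbp4, which encodes the retinol-binding protein that transthyretin carries, was at 14.5 ± 1.148, 7.37 ± 0.465 and 13.8 ± 0.881 TPM in control, overexpression and EGCG (SD, n = 3 each). Thra, the thyroid hormone receptor alpha gene, was at 15.0 ± 0.872, 4.18 ± 0.188 and 13.6 ± 0.540 TPM. Rxrb, a retinoid X receptor gene, was the exception, at 6.88 ± 0.425, 8.84 ± 0.497 and 9.77 ± 0.541 TPM, higher than control in both groups (limma, adjusted p = 0.00236 and 0.00481).

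Among 28 transcription factor genes of islet and enteroendocrine cells, 14 were tested. Overexpression raised 5 and lowered 4, and 5 did not pass (median 0.03 on the log2 scale, all tested genes 0.10). In EGCG against overexpression 7 were lower, none was higher and 7 did not pass (median -0.21, all tested genes -0.09). Called shares over all tested genes were 38.2% higher and 21.3% lower with overexpression, and 34.1% lower and 18.8% higher with EGCG. Etv1 was at 3.38 ± 1.06, 12.1 ± 1.13 and 3.39 ± 0.606 TPM in control, overexpression and EGCG (SD, n = 3 each), Myt1 at 9.14 ± 0.575, 17.8 ± 1.14 and 10.5 ± 1.31 TPM, and the beta cell factor Pdx1 at 42.4 ± 2.56, 70.6 ± 4.03 and 33.7 ± 4.07 TPM. Mafa, a beta cell factor that binds the insulin promoter, was at 62.9 ± 5.17 TPM in control, falling to 38.7 ± 0.248 TPM in overexpressing cells, and at 33.3 ± 4.42 TPM in the EGCG group. Neurod1, needed for islet development, was at 16.2 ± 1.70, 14.7 ± 1.18 and 11.6 ± 0.699 TPM; its fall with EGCG was called (limma, adjusted p = 0.0118) but not after rescaling to nuclear protein-coding genes (limma, adjusted p = 0.0782).

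The cyclic AMP and calcium response list, whose pathway is known to act on peptide hormone promoters, was split. Of 22 genes 20 were tested. With overexpression 7 rose, 5 fell and 8 did not pass (median 0.02 on the log2 scale, all tested genes 0.10), and with EGCG against overexpression 5 rose, 6 fell and 9 did not pass (median -0.14, all tested genes -0.09). Of all tested genes, 38.2% rose and 21.3% fell with overexpression, and 18.8% rose and 34.1% fell with EGCG. Sik1, counted as risen with overexpression, and Nfatc1, counted as fallen with EGCG, averaged 0.94 and 0.91 TPM over the 9 libraries. Both lay near the limit of the filter, so their calls are a description. Among regulatory subunits of protein kinase A, Prkar1a and Prkar1b went opposite ways, and Prkar2b, named after its values were seen, did not pass the test with overexpression (0.06; limma, adjusted p = 0.474) or with EGCG (-0.18; limma, adjusted p = 0.0595). Prkar1a was at 77.0 ± 2.18, 110.3 ± 5.33 and 76.2 ± 3.83 TPM in control, overexpression and EGCG (SD, n = 3 each), and Prkar1b at 27.5 ± 1.36, 14.1 ± 1.14 and 22.7 ± 1.08 TPM. The catalytic subunit gene Prkaca rose by 0.37 ± 0.0602 (SE) with overexpression (limma, adjusted p = 0.000711), and Creb3, a membrane-bound CREB family factor, by 0.91 ± 0.130 (limma, adjusted p = 0.000313). The calcium-dependent kinase gene Camk2b was at 12.2 ± 0.559, 6.31 ± 0.466 and 11.6 ± 0.642 TPM.

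Of 38 other peptide hormone, neuropeptide and granin genes, 11 were tested. Overexpression raised 7 and lowered 3, and 1 did not pass (median 0.30 on the log2 scale, all tested genes 0.10). In EGCG against overexpression 1 was higher, 6 were lower and 4 did not pass (median -0.20, all tested genes -0.09). Of all tested genes, 38.2% were called higher and 21.3% lower with overexpression, and 18.8% higher and 34.1% lower with EGCG. Ins1 was at 784.9 ± 45.1, 2030.0 ± 67.5 and 724.4 ± 17.9 TPM in control, overexpression and EGCG (SD, n = 3 each). The granin genes differed: Scg3 was at 64.1 ± 5.45, 95.9 ± 5.80 and 61.5 ± 4.21 TPM, and Chga at 1114 ± 40.3, 861.4 ± 10.7 and 793.3 ± 43.4 TPM. Vgf, a neuroendocrine peptide precursor gene, was at 9.75 ± 0.581, 14.4 ± 0.987 and 11.2 ± 1.82 TPM. Its fall with EGCG (limma, adjusted p = 0.0190) was not called with quantile normalization, with median-ratio scaling over the tested genes, after rescaling to nuclear protein-coding genes, without the filter or without overexpression replicate 2, overexpression replicate 3 or EGCG replicate 3, where the adjusted p reached 0.134.

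**Figure D5:**
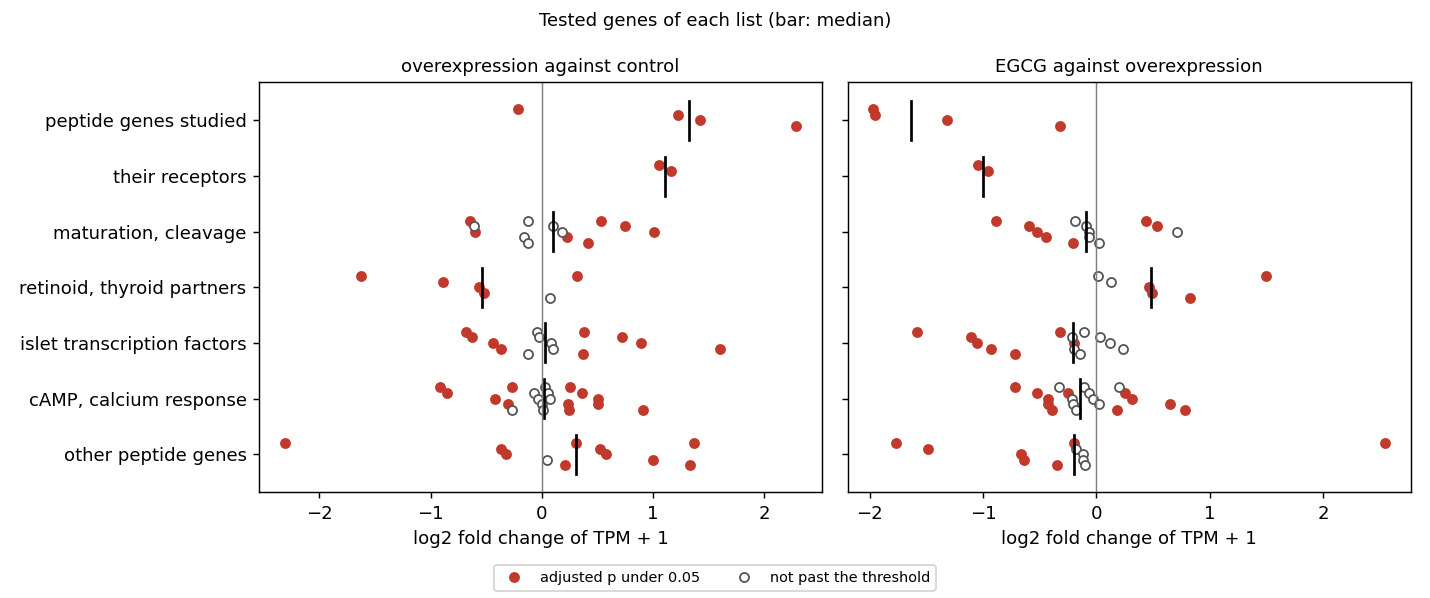
Differences of mean log2(TPM + 1) for the tested genes of each list (points, filled where the adjusted p is under 0.05), with the list's median (black bar), for overexpression against control (left) and EGCG against overexpression (right), which share the overexpression libraries. The tested peptide genes lie to the right of 0 on the left panel, apart from Npy, and to the left of 0 on the right panel, while the retinoid and thyroid partners lie mostly on the other side. The receptors are Glp1r and Sstr2 alone, and Sstr2 passed the filter only through the overexpression group. Its points and the median of that list are thus a description.

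The libraries were checked against markers of other cells. Beta cell markers summed to 3763 to 3921 TPM in control, 5819 to 6101 TPM with overexpression and 4045 to 4377 TPM with EGCG, most of it Iapp and Ins1. Single markers differed: of 11 tested, EGCG against control had 5 called higher and 3 (Mafa, Nkx6-1 and Pdx1) lower. Over all tested genes 11.1% were called higher and 7.10% lower there. Of 10 alpha cell markers, Gcg and Ttr included, 4 were under 1 TPM in every library, Irx1 and Pou3f4 among them. Their sum, most of it Gcg, was 353.3 to 370.4 TPM in control, 831.9 to 916.4 TPM with overexpression and 331.0 to 369.2 TPM with EGCG. Of 5 delta cell markers only Rbp4 passed the filter, and Hhex, the defining delta cell factor, was at 0 to 0.12 TPM. Enteroendocrine markers summed to 65.1 to 72.0, 174.7 to 207.7 and 42.3 to 54.7 TPM in control, overexpression and EGCG, almost all of it Cck. The 8 acinar markers summed to 3.94 to 5.62 TPM over all libraries and the 6 fibroblast markers to 0.12 to 0.89 TPM. PP cell markers (Ppy and Pyy) summed to at most 0.15 TPM and the 2 epsilon cell markers to at most 0.99 TPM. Duct markers summed to 11.01 to 18.1 TPM, most of it Krt7, while Krt19 and Sox9 were at 0 to 0.05 TPM. Endothelial and leukocyte markers summed to at most 2.66 and 1.39 TPM.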

How the data were processed

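RNA-seq of MIN6 cells was deposited as 1 table of TPM, a length-corrected share of all transcripts, per Ensembl transcript for 9 libraries. Because each library adds up to the same total, a gene's value also depends on all other RNAs, and neither depth nor a counting interval can be had from the file. The tools listed per the submitters' processing notes are STAR 2.7.1a, RSEM 1.2.31, cutadapt 2.8, FastQC 0.11.9 and bcl2fastq 2.20, and the build is GRCm39. Annotation release, strand setting and filters: not given in the sources used here. The labels' protocols name a stranded total RNA kit. Titles gave the groups and the replicate numbers.

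Identifiers were joined to genes with GENCODE M21, an older build used for names and transcript types. Of 142435 transcript rows, 138346 (97.13%) matched, giving 52408 genes, and the unmatched rows held 18.0% to 20.6% of a library's TPM. TPM was summed per gene. The 11950 genes that reached 1 TPM in 3 or more libraries entered limma 3.58.1 in R 4.3.3 on log2(TPM + 1). The fit held all 9 libraries and used eBayes with a mean-variance trend. Tests were two-sided, with Benjamini-Hochberg adjustment over all tested genes of a comparison at 0.05. The fit was checked on simulated data with known changes. Ratios within a library were tested with exact permutation over libraries in Python 3.11.15 with scipy 1.17.1. Figures used matplotlib 3.10.9. Promoter windows were taken from RefSeq on GRCm38.p6.

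The 8 peptide genes and all gene lists were chosen with earlier results of these data known. The genes named are the 8, Nr4a1, Ins1 and Chga. From each list of related genes, up to 4 called genes per comparison with the smallest adjusted p and a mean of at least 5 TPM are named, or, where there were none, up to 2 of the highest TPM. For each tested peptide gene the 5 genes with the most similar profile are also named. A few genes that these rules pick are not reported here. Marker genes are named where a cell type was checked, and the genes of the other observations were chosen after their values were seen. Alternatives covered the pseudocount, the filter, 4 scalings, the groups in the fit, the variance trend, a replicate block, protein-coding transcripts alone and leaving out each library. Median-ratio scaling over the tested genes was added after the data were seen.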

Additional observations from a re-analysis of the deposited data

How the results depend on the processing

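For the tested peptide genes, 206 recomputed differences kept their direction and their side of the threshold, 22 kept their direction and lost the call, and none reversed. Gcg, Ttr and Cck kept their calls in the first 2 comparisons under all 19 alternatives. The 22 lost calls belong to Npy in those comparisons and to Ttr in EGCG against control. The 294 recomputed differences of log2 ratios moved by less than 1 SD. The number of the 8 genes called lower with overexpression was 1, and it ranged from 0 to 1 when a library was left out. The number called higher with EGCG against control was 1, 0 to 1 when a library was left out, and 0 with only the 2 groups of the comparison in the fit.

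Without the filter on low values, overexpression against control gave 12395 called genes and EGCG against control 4775, compared with 7106 and 2172. EGCG against overexpression gave 5739, compared with 6330. There 39165 genes were tested. Of these, 7798 were called lower and 4597 higher with overexpression, and 3563 lower and 1212 higher for EGCG against control. Sst and Ghrl then entered the test, at levels under 1 TPM. Sst was called lower with overexpression (limma, adjusted p = 0.00298) and with EGCG against control (limma, adjusted p = 0.0132). Ghrl was called higher in both (limma, adjusted p = 0.0407 and 0.0370). Sst was above 0 in the control libraries alone, as was the median of the chemoreceptor genes. The part of that low-level signal in the Sst calls was not tested. For EGCG against control 895 genes were called with 2 groups in the fit, and 735 to 3239 when a library was left out. These extremes came without EGCG replicate 1 and without control replicate 3, and the count also moved by over 1.5 times without control replicate 1 (988), control replicate 2 (974) or EGCG replicate 2 (1246). The split of directions followed the scale: for overexpression against control 4561 rose and 2545 fell, but 3559 and 3389 with quantile normalization, 3812 and 3219 after rescaling to nuclear protein-coding genes, and 3541 and 3547 with median-ratio scaling over the tested genes. For EGCG against overexpression 2250 rose and 4080 fell, against 2816 and 3101, 3462 and 2607, and 3054 and 3082. Median-ratio scaling over genes above 0 in every library gave 4560 and 2631 for the first comparison and 2557 and 3772 for the second. The scaling over the tested genes sets the median change near 0, so its near-even split is built in. The cause of the other shifts was not tested.

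Groups share replicate numbers. Deviations of same-numbered libraries from their group means correlated at -0.021 to 0.214, not all above 0.1. Differently numbered libraries were not compared, so these values cannot decide whether the numbers pair the libraries. With a replicate block 1221 genes were called for EGCG against control. The block also ended the call of Npy with overexpression (limma, adjusted p = 0.0870), leaving 0 of the 8 lower, and that of Ttr for EGCG against control (adjusted p = 0.0658), leaving 0 higher.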

Other observations

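Several peptide and islet genes outside the naming rule, chosen after their values were seen, moved along with or against the tested peptide genes. Secretin (Sct), a gut hormone gene, was at 2.30, 1.39 and 2.46 TPM for control, 6.84, 5.28 and 7.97 TPM with overexpression and 1.26, 1.41 and 1.06 TPM with EGCG. It rose by 1.34 ± 0.163 (SE) on the log2(TPM + 1) scale with overexpression (limma, adjusted p = 0.000123) and fell by 1.77 ± 0.163 with EGCG (limma, adjusted p = 3.53e-05). The opioid peptide gene Pdyn was at 1.28 ± 0.201, 3.57 ± 0.590 and 1.87 ± 0.168 TPM in control, overexpression and EGCG (SD, n = 3 each). Adrenomedullin (Adm), a vasodilator peptide gene, ran the other way, at 5.04, 5.67 and 4.96 TPM for control, 0.33, 0.26 and 0.17 TPM with overexpression and 6.14, 5.89 and 6.90 TPM with EGCG.

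Among the alpha cell markers that passed the filter, Gc, which encodes the vitamin D-binding protein, was at 1.38 ± 0.297, 8.83 ± 2.22 and 1.93 ± 0.297 TPM, and the amino acid transporter gene Slc38a5 at 17.9 ± 1.74, 37.5 ± 0.830 and 19.2 ± 1.22 TPM (SD, n = 3 each). Both rose with overexpression (limma, adjusted p = 9.05e-06 and 5.62e-06), by 2.03 and 1.03 on the log2 scale. Irx2, an alpha cell transcription factor gene, did not move with them, at 3.50 ± 0.885, 2.44 ± 0.0954 and 2.76 ± 0.516 TPM. Its difference with overexpression was -0.37 (limma, adjusted p = 0.0455), a call lost without the filter and without control replicate 1 or 2, overexpression replicate 1, 2 or 3, or EGCG replicate 3, with a highest adjusted p of 0.139. A further tested alpha cell marker, Slc7a2, was not called with overexpression (0.12, limma, adjusted p = 0.1585). It was called lower with EGCG against overexpression (-0.21, limma, adjusted p = 0.0317).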
